A study of Mus musculus with 11 samples.

Results

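The genes described here encode proteins that build or hold together the light-sensing outer segment of rods and cones. Of 9 genes chosen by name for that role (Prph2, Rom1, Prom1, Cdhr1, Rp1, Reep6, Slc24a1, Impg1 and Pcare), 8 had a row among the 25311 genes of the count matrix, and Pcare had none under that symbol. The values are unique molecular identifiers (UMIs, tags that count captured RNA molecules) from inDrop single-cell RNA sequencing of 11 C57BL/6J mouse retinas at postnatal day 10. The 4 groups were vehicle controls given PBS (3 mice), Phase I ROP mice made hyperglycaemic with streptozotocin (STZ, 3 mice), and STZ mice nursed by dams on an ω-3 diet rich in DHA and EPA (2 mice) or an ω-6 diet rich in arachidonic acid (3 mice). All 8 mice of the ROP and diet groups received STZ. The paper describes controls and ROP mice as littermates, and likewise the pups of both diets. It also states that litters given STZ were kept smaller than those without STZ. Because the diets were fed to nursing dams, diet cannot be told apart from dam, and the number of dams is not given. The model is a chemical one in pups of both sexes: STZ kills insulin-producing cells, and the fatty acids reached the pups through the milk. The retinal pigment epithelium was removed before dissociation.

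An outer segment is a modified cilium packed with a stack of membrane discs that carry the visual pigment. Discs form at its base as folds of the plasma membrane, and their rims are curved and stabilised by the tetraspanins peripherin-2 (Prph2) and Rom1. Prominin-1 (Prom1) and the protocadherin Cdhr1 sit where new discs form, Rp1 binds the axoneme, the microtubule core along which discs are aligned, Reep6 acts in the endoplasmic reticulum of rods, Slc24a1 exchanges sodium for calcium and potassium at the rod plasma membrane, and Impg1 lies in the matrix around the outer segments. In the mouse, outer segments lengthen during the weeks after birth, and day 10 falls within their growth. Loss of several of these genes causes retinal degeneration.

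The 8 genes lie on 7 chromosomes of GRCm38, and only Slc24a1 (chr9:64922861-64951607) and Impg1 (chr9:80313330-80465481), both on the minus strand, share one. Prph2 is at chr17:46910459-46924933 on the plus strand and Rom1 at chr19:8927391-8929356 on the minus strand. Reep6 is at chr10:80329953-80336441 on the plus strand, and Rp1 (chr1:3999557-4409241), Prom1 (chr5:43993620-44102032) and Cdhr1 (chr14:37077857-37098347) are on the minus strand. Rp1, Prom1 and Impg1 overlap pseudogenes or non-coding transcripts of the annotation, and reads of Prom1 cannot be told apart from those of the antisense transcript Gm16401 if strand was not used in counting, which is not given in the sources used here.

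Prph2 and Rom1 are partners in the disc rim and the pair described most closely here, so the 250 bases before their RefSeq start sites (GRCm38.p6) are shown, with the short homeobox core TAATC in capitals on either strand (GATTA is its reverse). The Prph2 window is chr17:46910228-46910477 on the plus strand and the Rom1 window chr19:8929357-8929606 on the minus strand.
Prph2: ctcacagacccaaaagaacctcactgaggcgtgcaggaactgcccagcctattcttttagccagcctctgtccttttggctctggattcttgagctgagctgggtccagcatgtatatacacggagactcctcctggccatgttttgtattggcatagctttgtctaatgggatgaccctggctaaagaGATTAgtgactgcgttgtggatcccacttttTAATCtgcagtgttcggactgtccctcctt
Rom1: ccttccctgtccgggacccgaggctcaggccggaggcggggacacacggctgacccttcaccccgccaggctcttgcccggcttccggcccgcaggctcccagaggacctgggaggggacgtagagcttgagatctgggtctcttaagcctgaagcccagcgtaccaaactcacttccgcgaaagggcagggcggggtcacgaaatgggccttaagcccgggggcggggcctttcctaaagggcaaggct
Prph2 held 2 matches, 30 bases before the start site as TAATC and 61 bases before it as the reverse, and Rom1 held none. RefSeq promoter windows were found for 6 of the 8 genes (7 windows, as Prom1 had 2), and TAATC was in 3 of the 7, in Prph2, Impg1 and 1 window of Prom1, against 19.8% of all 32851 promoters of that length. The windows of Slc24a1 and Cdhr1, both of which rose in ROP rods as given later, also held none. The longer photoreceptor homeobox motif TAATCC, which contains TAATC and was searched first, was in 0 of the 7 windows and in 6.25% of all promoters, and the motif TGCTGAC was in 0 of the 7 and in 3.81% of all.

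Clusters of the 20033 cells kept were given class names from canonical markers: 9967 rod-like cells, 1126 cone-like, 3596 bipolar-like, 3287 amacrine-like and 1425 Müller-like cells entered the tests, and are called rods, cones and so on. Each mouse gave 2563064 to 6516478 UMIs. In genes picked after their values were seen, libraries of the 3 controls differed from the other 8. Across all cells, the 7SK RNA Rn7sk was at 193 to 290 counts per 1000000 UMIs (CPM) in controls against 1.15 to 16.2 elsewhere, and the immediate early gene Fosb at 0.390 to 0.890 against 116 to 231. Mitochondrial transcripts made up 12.67% to 16.12% of rod UMIs in controls and 3.91% to 8.58% in ROP. These differences cannot be told apart from the treatment, since they separate the same mice. Rods were 27.6% ± 3.8 (SD, n = 3) of control cells and 51.3% ± 4.0 (n = 3) of ROP cells, and only 73 cones came from the 3 control mice. By a threshold set after the data were seen, a cluster of 211 cells was left unnamed. It held 3.53% of control cells against 0.302% of ROP cells. These cells had Prph2 at 2011 CPM (seen in 55.45% of them), Rom1 at 1412 CPM, Rp1 at 824 CPM and Cdhr1 at 648 CPM. They were in none of the classes tested. Of 18842 cell barcodes, 1154 occurred in more than 1 mouse.

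All 8 genes were highest in rods or cones, as a description of clusters made from the same cells. With the UMIs of all mice pooled, rods held between 69.44% (Cdhr1) and 79.44% (Rp1) of each gene's UMIs and cones between 12.38% (Rp1) and 20.51% (Cdhr1), whereas rods held 28.32% and cones 8.28% of all UMIs. Among the 5 classes tested, Prph2 was at 3642 CPM in rods and 3117 CPM in cones, against 278 CPM in Müller glia, 267 CPM in bipolar cells and 109 CPM in amacrine cells. The small retinal pigment epithelium class held it at 530 CPM. Over the 11 mice its level ran from 799 to 4520 CPM in rods and from 615 to 3986 CPM in cones, so the 2 classes overlapped. Cdhr1 had pooled levels of 1336 CPM in cones and 1323 CPM in rods, but in control mice it was higher in cones (972 to 1146 CPM) than in rods (347 to 750 CPM), with no overlap, and in ROP mice the classes overlapped. Among the same 5 classes, Reep6 ranked rods (865 CPM) above cones (496 CPM), Müller glia (74.5 CPM), bipolar cells (52.4 CPM) and amacrine cells (35.1 CPM), and the last 3 overlapped between mice. In the retinal pigment epithelium class Reep6 was at 125 CPM. Impg1 had the fewest UMIs, 1008 in all rods (77.6 CPM, 95% Poisson interval 72.9 to 82.6, which covers counting error only) and 260 in all cones (68.5 CPM, 60.4 to 77.3).

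**Figure D1:**
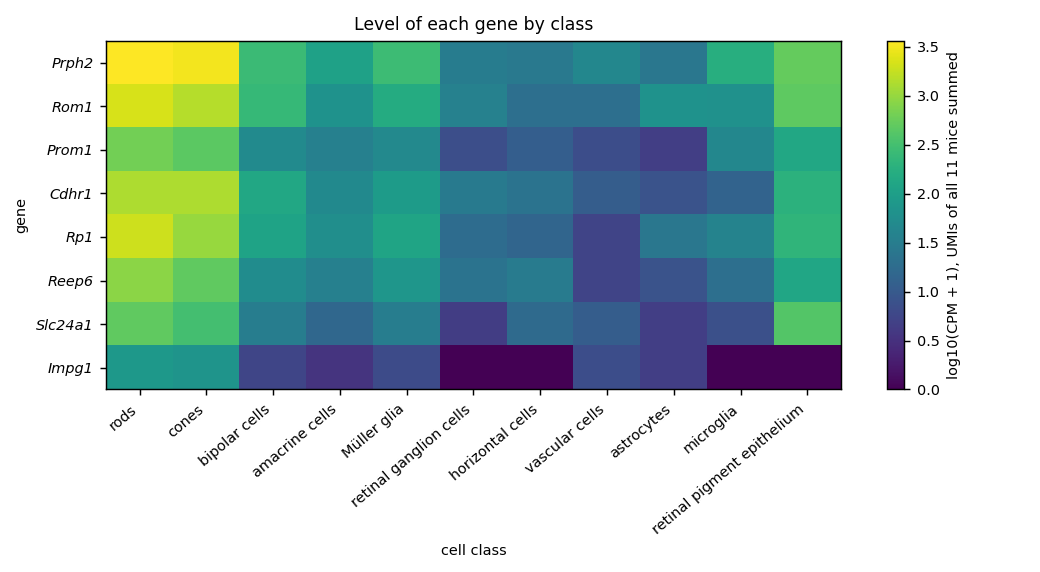
Level of each gene in 11 named classes, as log10(CPM + 1) of the UMIs of all 11 mice summed (colour scale from 0 to about 3.5). The rod and cone columns are the brightest for 7 of the 8 genes, and for Slc24a1 the small retinal pigment epithelium class (405 CPM) lies between rods (498 CPM) and cones (310 CPM).

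Slc24a1 was the exception outside the photoreceptors. The 75 cells whose leading genes were markers of retinal pigment epithelium held 42 Slc24a1 UMIs, or 405 CPM with a 95% Poisson interval of 292 to 547. The 9 such cells of control mice had 7 Slc24a1 UMIs of 12055. With so few cells the level is a description only, and the part of rod RNA in it was not tested.

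In rods, 7 of the 8 genes were higher in Phase I ROP than in control mice, when 18.4% of the 7972 genes tested were called higher at an adjusted p under 0.05 (edgeR quasi-likelihood test on UMIs summed per mouse, Benjamini-Hochberg adjustment over all genes). All 8 passed the filter on low counts. All 8 also had every ROP mouse above every control in CPM, as did 39.1% of all genes tested in rods. In cones 6 of the 7 genes tested did, against 28.6% of all genes tested. The log2 fold changes ran from 0.18 for Rom1 to 2.15 for Slc24a1, with a median of 1.17 against 0.04 over all genes tested. Rod markers moved in the same cells: 5 of the 10 rose and 0 fell, and their summed level was 12920 to 23500 CPM in controls against 33420 to 46990 CPM in ROP. Clusters with a rod marker among their leading genes held 56.63% of control rods and 84.66% of ROP rods. With only those clusters, Prom1 was not called, as given below. The part of the rod markers, of the cluster make-up, of the mitochondrial share and of the control libraries in the result was not tested.

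In the disc rim, Prph2 rose and Rom1 did not pass the test. In rods Prph2 was at 1278, 799 and 1193 CPM in the 3 controls and at 3197, 4520 and 4190 CPM in the 3 ROP mice, and the groups were far apart. Its log2 fold change was 1.51 ± 0.27 (SE, adjusted p = 0.000445). Rom1 was at 2153, 1024 and 1981 CPM in controls and at 2310, 2650 and 2460 CPM in ROP rods. Every ROP mouse lay above every control, but control 2 was far below the other controls and the log2 difference was 0.18 ± 0.28 (adjusted p = 0.626), falling to -0.06 without that mouse. The fitted values are relative to a trimmed-mean scaling, and on plain CPM, under which the median gene of rods moved to 0.36, Rom1 was at 0.50 (adjusted p = 0.153).

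In cones, too, Prph2 rose and Rom1 did not pass the test. Prph2 was at 999, 625 and 615 CPM in control cones and at 1809, 2403 and 1982 CPM in ROP cones, with no overlap and a log2 fold change of 1.33 ± 0.25 (adjusted p = 0.000754). Rom1 was at 1134, 417 and 820 CPM in control cones and at 823, 1091 and 1083 CPM in ROP cones, and the groups overlapped. Its log2 difference was 0.15 ± 0.25 (adjusted p = 0.712), and -0.12 without control 2.

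The number of Prph2 UMIs for each Rom1 UMI in the same cells gives the shift free of any scaling between mice. This ratio was computed after the separate results were seen. In rods it was 0.594, 0.781 and 0.602 in controls (0.659 ± 0.106, SD, n = 3) and 1.38, 1.71 and 1.70 in ROP mice (1.60 ± 0.19, n = 3). The groups did not overlap, and the 2-sided exact permutation test gave p = 0.1, the smallest that 3 mice against 3 allow. In cones the ratio was 1.04 ± 0.40 in controls and 2.08 ± 0.21 in ROP (exact permutation p = 0.1), and over all cells of the retina it was 0.617 ± 0.067 and 1.60 ± 0.17 (exact permutation p = 0.1). UMI counts of different genes are not equally captured, so the ratio compares mice and not the amounts of both proteins.

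**Figure D2:**
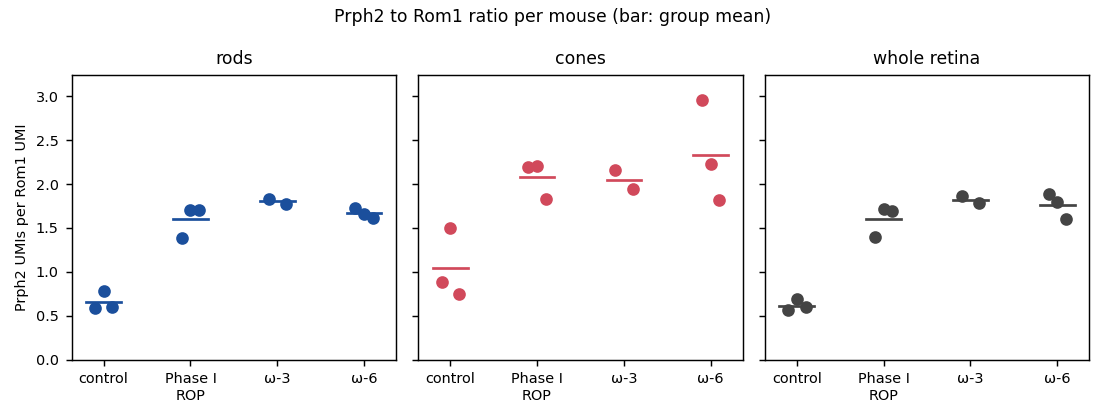
Prph2 UMIs per Rom1 UMI (vertical axis, from 0) in rods, cones and the whole retina, with 1 point per mouse and a bar at the group mean. Control mice lie below all others in rods (0.594 to 0.781) and in the whole retina (0.561 to 0.692), and below all others in cones (0.750 to 1.5).

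Both genes of disc formation rose in rods. Cdhr1 was at 750, 347 and 650 CPM in control rods and at 1347, 1557 and 1738 CPM in ROP rods, with a log2 fold change of 1.06 ± 0.26 (adjusted p = 0.00512). Prom1, a pentaspan protein of membrane protrusions, was at 448, 368 and 373 CPM in controls and at 701, 770 and 856 CPM in ROP, with a log2 fold change of 0.62 ± 0.21 (adjusted p = 0.028). The groups did not overlap for either gene. The Prom1 call was the weakest of the 7: it was lost without control 3 (adjusted p = 0.0961), without ROP 2 (0.07) or without ROP 3 (0.0977), with a replicate block (0.0601), and at 0.31 (adjusted p = 0.234) when only rod clusters with a rod marker among their leading genes were used. Those clusters held 56.63% of control rods and 84.66% of ROP rods.

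In cones neither gene was called, although their mice did not overlap. Cdhr1 was at 972, 1146 and 1046 CPM in controls and at 1420, 1533 and 1707 CPM in ROP, a log2 difference of 0.38 ± 0.22 (adjusted p = 0.217). Prom1 was at 243, 208 and 216 CPM in controls and at 394, 437 and 442 CPM in ROP, a log2 difference of 0.76 ± 0.28 (adjusted p = 0.0565). On plain CPM, where the median gene of cones moved to 0.42, both passed, at 0.70 for Cdhr1 (adjusted p = 0.0223) and at 1.08 for Prom1 (adjusted p = 0.00791).

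The axonemal gene Rp1 rose in both classes. It was at 816, 571 and 600 CPM in control rods and at 1854, 2310 and 2594 CPM in ROP rods, with a log2 fold change of 1.42 ± 0.25 (adjusted p = 0.000334). In cones it was at 297, 313 and 129 CPM in controls and at 629, 861 and 837 CPM in ROP, with a log2 fold change of 1.65 ± 0.29 (adjusted p = 0.000579). No ROP mouse reached down to a control in either class.

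Reep6 was at 403, 237 and 403 CPM in control rods and at 733, 1021 and 1020 CPM in ROP rods, with a log2 fold change of 1.05 ± 0.24 (adjusted p = 0.00297). In cones it rested on 2, 1 and 7 control UMIs (54.0, 26.0 and 75.5 CPM), and ROP cones were at 235, 376 and 402 CPM. The groups did not overlap, and the log2 fold change was 2.32 ± 0.44 (adjusted p = 0.00101), reaching 3.02 without control 3.

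Slc24a1 had the largest rise of the 8 in rods. It was at 208, 33.8 and 96.5 CPM in controls and at 452, 730 and 752 CPM in ROP, with a log2 fold change of 2.15 ± 0.37 (adjusted p = 0.000349) that became 2.89 without control 1. In control cones there were 0 UMIs among 168167, which allows up to 17.8 CPM over the group, while ROP cones held 189 UMIs at 190, 301 and 301 CPM per mouse. The level in ROP cones was therefore at least 14.9-fold higher (266 CPM pooled, adjusted p = 6.44e-05). The rod marker Gnat1, a rod transducin subunit named here after its values were seen, rose in the same cones, from 1 UMI in all controls (8.68 ± 15.03 CPM) to 242 UMIs in ROP mice (346 ± 130 CPM, adjusted p = 5.06e-05), and the part of rod RNA in cone barcodes was not tested.

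Impg1 was at 34.7, 12.7 and 31.5 CPM in control rods and at 76.2, 71.9 and 107 CPM in ROP rods. The groups did not overlap and the log2 fold change was 1.29 ± 0.36 (adjusted p = 0.0106), a call that was lost without ROP 3 (adjusted p = 0.058). In cones Impg1 did not pass the filter on low counts: controls held 10, 2 and 1 UMIs (270, 52.1 and 10.8 CPM) and overlapped the ROP mice (45.2, 61.1 and 50.7 CPM). The high value of control 1 came from 14 cells.

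The matrix also lists BC027072, a symbol under which mouse Pcare, an actin regulator at the base of the outer segment, was formerly known. The tables used here do not pair the names, so its values stand apart and enter no count. BC027072 was at 13.9, 29.6 and 8.39 CPM in control rods and at 252, 356 and 307 CPM in ROP rods, and the groups were widely separated. The log2 fold change was 3.94 ± 0.36 (adjusted p = 1.54e-06), larger than that of the 8 genes counted. In cones it was 2.07 ± 0.51 (adjusted p = 0.00742), with 41.0 ± 50.2 CPM in controls and 276 ± 53 CPM in ROP, and it rose to 4.27 without control 3.

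**Figure D3:**
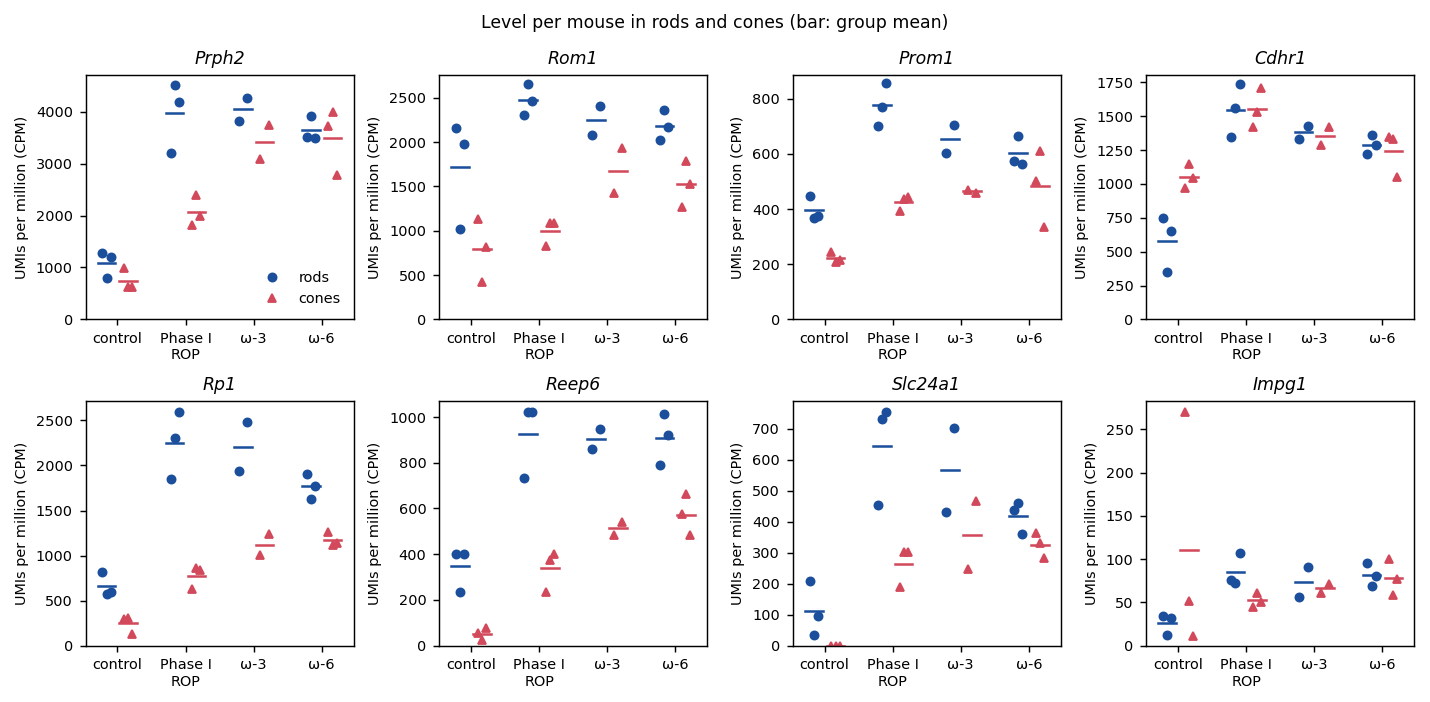
Level of each of the 8 genes in CPM (vertical axes, from 0) in rods (circles) and cones (triangles) of the 4 groups, with 1 point per mouse and a bar at the group mean. Control rods lie below the rods of every ROP mouse for all 8 genes, as for 39.1% of all genes tested, by a wide gap for Prph2 (799 to 1278 against 3197 to 4520 CPM) and a narrow one for Rom1 (1024 to 2153 against 2310 to 2650 CPM).

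In cones, 4 of the 7 genes tested were called higher (Prph2, Rp1, Reep6 and Slc24a1) and 0 lower, against 10.9% of 3125 genes called higher. Slc24a1, with 0 control UMIs, and Reep6, with 2, 1 and 7, passed the filter on low counts through ROP mice. Impg1 did not pass, at 270, 52.1 and 10.8 CPM in controls and 45.2, 61.1 and 50.7 CPM in ROP. The count and the median below therefore rest in part on genes that entered by their ROP level. The median log2 value was 1.33 against 0.10 over all genes tested, and stays the same with Slc24a1 set at its bound. Of the 10 rod markers, 7 rose and 1 fell in cones, with a summed level of 7604 to 9274 CPM in controls and 13750 to 19100 CPM in ROP. Cone markers in cones went from 31410 ± 2178 CPM to 19500 ± 1761 CPM.

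The change in rods minus the change in cones was fitted in 1 model with the mouse as a block, in which 5.22% of 6270 genes were called in either direction, 303 with the larger value in cones and 24 with the larger value in rods, at a median over all genes of -0.30. Only 1 of the 8 genes was called, Slc24a1, whose rise was larger in cones (adjusted p = 0.0171). Its size has no bound from the fit because control cones held 0 UMIs. The call was lost without control 1 (adjusted p = 0.0951) or control 3 (0.106), and DESeq2 gave 0.0877. Of the 10 rod markers, 7 differed in the same direction and 1 the other way, and for Gnat1 the adjusted p was 0.000567. The difference was 0.06 ± 0.26 for Prph2 (adjusted p = 0.953), -0.11 ± 0.26 for Rom1 (0.895) and -0.31 ± 0.34 for Rp1 (0.716). For Reep6 it was -1.39 ± 0.49 (adjusted p = 0.0884), for Cdhr1 0.59 ± 0.27 (0.218), for Prom1 -0.22 ± 0.34 (0.825) and for Impg1 1.99 ± 0.74 (0.117), none of them past the threshold.

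The share of rods with at least 1 UMI was higher in ROP as well, as a description over mice. Prph2 was seen in 50.2% ± 10.7 of control rods and 89.1% ± 4.8 of ROP rods (SD over 3 mice), and in 35.2% ± 7.7 and 80.4% ± 7.4 after every cell was thinned to 500 UMIs, which left out 50 of 913 control rods and 279 of 2986 ROP rods. In Müller glia, which are not known to make outer segments, the share was 2.04% and 12.4% (0.24% and 6.31% thinned), at a median of 2082 UMIs per cell against 1054 in rods. Thinned shares in rods went from 48.2% ± 14.8 to 64.8% ± 2.6 for Rom1, from 22.0% ± 4.0 to 57.6% ± 7.2 for Rp1 and from 21.8% ± 6.8 to 49.4% ± 5.0 for Cdhr1. The least often seen were Slc24a1, from 4.82% ± 3.47 to 22.1% ± 5.6, and Impg1, from 1.13% ± 0.58 to 3.33% ± 1.09. Impg1 in rods was still above its share in Müller glia, where the thinned cells of both groups held none.

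Outside the photoreceptors the same RNAs were found at low levels, and most of those tested were called higher. Among Müller glia 3 of 4 genes tested were called higher (5.81% of 4855 genes were), among amacrine cells 6 of 6 (18.3% of 11315) and among bipolar cells 5 of 6 (21.3% of 10019), with 0 called lower in each. The filter on low counts asks for counts in about as many mice as 1 group holds, so genes near 0 in controls passed through ROP mice. In controls Rp1 had 1, 0 and 9 UMIs in Müller glia and 2, 0 and 4 in amacrine cells. Such a gene could enter only if it was higher in ROP, so these counts are in part set by the filter. Prom1 in Müller glia (adjusted p = 0.087) and Rom1 in bipolar cells were tested and not called, Slc24a1 and Impg1 did not pass the filter in bipolar or amacrine cells, and 4 of the 8 genes did not pass it in Müller glia. The median log2 values were 2.32, 2.26 and 1.33, against 0.00, 0.02 and 0.02 over all genes. Prph2 in amacrine cells was at 0.990, 4.85 and 7.98 CPM in controls and at 63.6, 83.1 and 88.4 CPM in ROP, a log2 fold change of 3.75 ± 0.39 (adjusted p = 1.11e-05), or 4.34 without control 3. In Müller glia Prph2 was at 7.75, 0 and 12.9 CPM in controls, from 2, 0 and 5 UMIs, and at 40.8, 242 and 212 CPM in ROP, a log2 fold change of 4.03 ± 0.71 (adjusted p = 0.00269), or 4.80 without control 3. In bipolar cells its log2 fold change was 1.65 ± 0.26 (adjusted p = 0.000214), and Rom1 did not pass the test at 0.25 ± 0.19 (adjusted p = 0.293), though on plain CPM it passed at 0.67 (adjusted p = 0.00848) with the median gene at 0.45.

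These increases moved with rod markers in the same cells. The summed level of the 10 rod markers was 709 to 1340 CPM in control and 1530 to 2484 CPM in ROP bipolar cells, 208 to 291 and 691 to 1165 CPM in amacrine cells, and 91.9 to 499 and 854 to 2559 CPM in Müller glia. Of the markers tested, 5 of 6 rose in Müller glia, 9 of 10 rose and 1 fell in amacrine cells, and 4 of 10 rose and 1 fell in bipolar cells. The Scrublet doublet score marked only 0.359% of cells, so it was taken not to have worked. After removal of the cells with its highest values in each mouse (nominally the top 5%, 853 cells), the genes called fell to 1 in bipolar cells (Prph2), 3 in amacrine cells (Prph2, Rom1 and Rp1) and 0 in Müller glia, where none then passed the filter on low counts. The share of all genes called after that removal is not reported here. Single mice decided several of these calls. In bipolar cells Prom1 was lost without control 1, ROP 2 or ROP 3 and Reep6 without control 1, control 2, ROP 2 or ROP 3. In amacrine cells Prom1 was lost without any 1 of 5 mice. In Müller glia Rom1 was lost without control 1 or ROP 2, and Rp1 without control 1, control 2, ROP 2 or ROP 3.

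**Figure D4:**
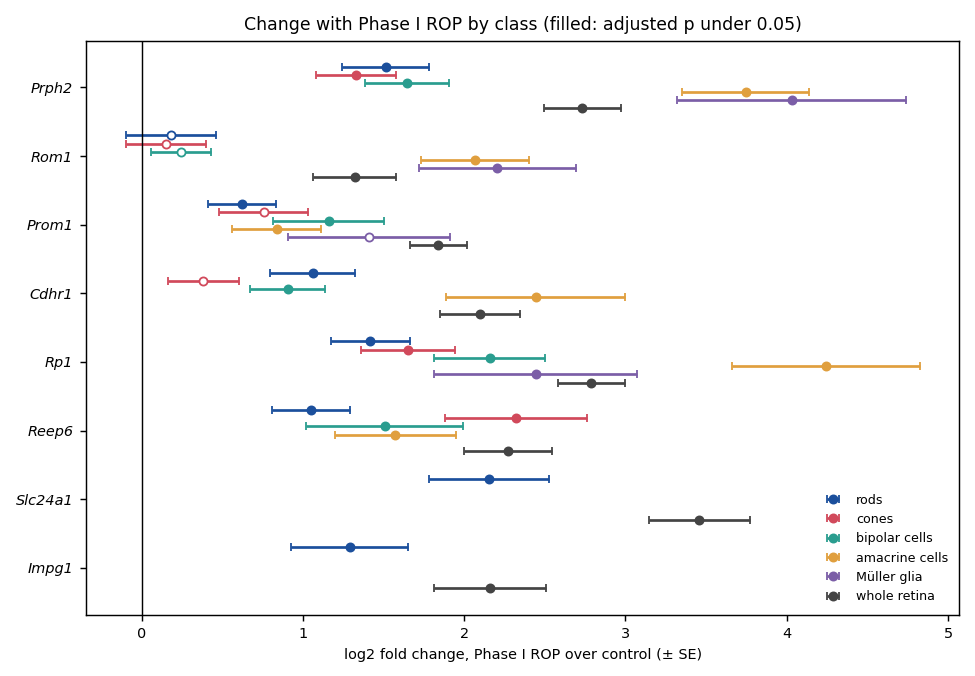
Log2 fold change of each gene in Phase I ROP over control with its standard error, by class, filled where the adjusted p was under 0.05. Genes that did not pass the filter in a class are not drawn, nor is Slc24a1 in cones, where controls held 0 UMIs. Rom1 lies near 0 in rods (0.18) and cones (0.15) and at 2.07 in amacrine cells and 2.21 in Müller glia, where the highest values are 4.24 (Rp1 in amacrine cells, 5.25 without control 3) and 4.03 (Prph2 in Müller glia).

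Over the whole retina all 8 genes were called higher in Phase I ROP (24.7% of 15964 genes were), with a median log2 fold change of 2.22 against 0.00 over all genes. In such sums fewer rods and less RNA per rod cannot be told apart, and the rod share differed as given above. Slc24a1 changed most, from 24.7, 7.01 and 17.5 CPM in controls to 159, 223 and 277 CPM in ROP (log2 fold change 3.46 ± 0.31, adjusted p = 1.11e-05). Rom1 changed least, from 316, 152 and 387 CPM to 834, 818 and 924 CPM (1.32 ± 0.26, adjusted p = 0.00152). For each of the 8 genes the ROP mice lay above the controls, as they did for 40.2% of all genes tested.

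No gene of the 8 was called between the ω-6 and ω-3 diets in any of the 5 classes or the whole retina (edgeR), and DESeq2 called none either. The comparison called few genes at all: 0.0159% of 12602 genes in rods, the mitochondrial rRNA genes mt-Rnr1 and mt-Rnr2, and 0.0% of 18821 genes in the whole retina, 0.0% of 7945 in Müller glia, 0.0% of 13121 among amacrine cells, 0.0% of 11942 among bipolar cells and 0.0% of 9160 in cones. At an unadjusted p under 0.05 there were 1389 genes in rods, 1328 in the whole retina, 283 in Müller glia, 1298 among amacrine cells, 503 among bipolar cells and 736 in cones. DESeq2 called 45, 23, 2, 7, 2 and 2 genes in that order.

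Between diets the levels of rods overlapped for 7 of the 8 genes, while 30.6% of the genes tested did not overlap in either direction. Prph2 was at 3821 and 4268 CPM in rods of the ω-3 mice and at 3506, 3918 and 3499 CPM in those of the ω-6 mice, a log2 difference of -0.02 ± 0.12 (adjusted p = 0.966). Rp1 was the gene whose mice did not overlap, at 1933 and 2485 CPM with ω-3 and at 1910, 1629 and 1773 CPM with ω-6. Its log2 difference was -0.19 ± 0.14 (adjusted p = 0.623) and turned to 0.03 without ω-3 mouse 2. Slc24a1 was at 432 and 703 CPM with ω-3 and at 436, 461 and 359 CPM with ω-6, a log2 difference of -0.32 ± 0.20 (adjusted p = 0.568) that turned to 0.11 without the same mouse. The remaining 5 genes lay between 0.01 (Prom1) and 0.25 (Impg1) in rods. In cones the differences ran from -0.10 (Rom1) to 0.27 (Impg1), with a smallest adjusted p of 0.789.

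**Figure D5:**
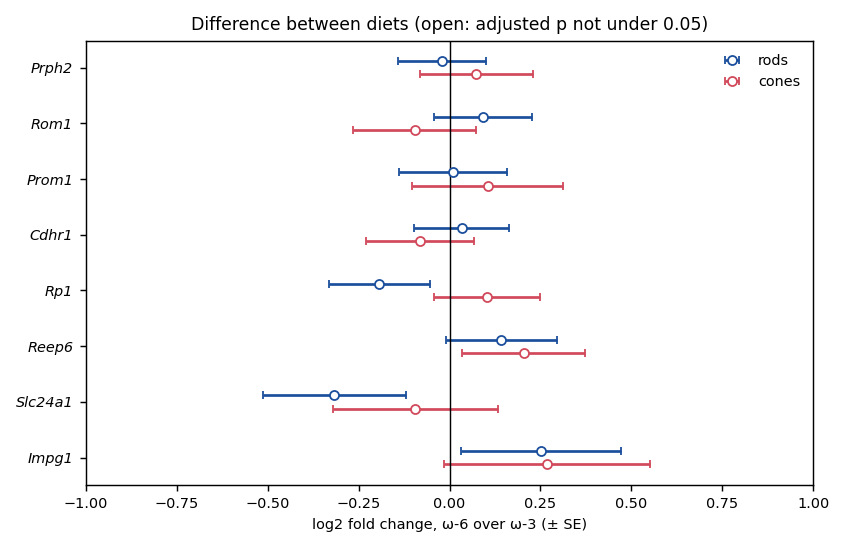
Log2 difference of each gene between ω-6 and ω-3 LCPUFA mice with its standard error, in rods and cones. All 16 values lie between -0.32 (Slc24a1 in rods) and 0.27 (Impg1 in cones), and none was called.

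The diet values were lower with ω-6 for all 7 genes tested in amacrine cells, from -0.90 to -0.37 with a median of -0.53, against 0.01 over all genes tested. Of these, 3 had an unadjusted p under 0.05, as did 1298 of all 13121 genes tested there, and the smallest adjusted p was 0.371 (edgeR), that of Prph2. Without the filter on low counts 2 were called, Prph2 at -0.87 (adjusted p = 0.000805) and Rp1 at -0.83 (adjusted p = 0.0266). The share of all genes called in that fit is not reported here, so the count cannot be set against it. Rod markers moved with them: the summed level of the 10 markers in amacrine cells was 1944 and 2147 CPM with ω-3 and 833 to 1630 CPM with ω-6. The Prph2 to Rom1 ratio in rods was 1.80 ± 0.04 (n = 2) with ω-3 and 1.67 ± 0.06 (n = 3) with ω-6 (exact permutation p = 0.2, the smallest that 3 mice against 2 allow), and in cones 2.05 ± 0.15 and 2.33 ± 0.58 (exact permutation p = 0.8).

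Other genes of the outer segment came from 3 lists that hold none of the 8. Their counts stand beside the 18.4% of all genes called higher in rods and 10.9% in cones, with all-gene medians of 0.04 and 0.10, and 1571 of 7972 genes were called lower in rods and 247 of 3125 in cones. Of 17 disc and plasma membrane proteins, 13 were tested in rods, of which 10 rose and 0 fell (median log2 1.12), and 14 in cones, of which 6 rose and 0 fell (1.09). Kcnv2, a subunit of the inner segment potassium channel, rose in rods by 2.20 ± 0.25 (adjusted p = 9.3e-06), and the guanylate cyclase Gucy2e by 2.08 ± 0.29 (adjusted p = 4.9e-05). In cones Kcnv2 rose by 2.63 ± 0.54 (adjusted p = 0.0018). The rod channel subunit Cnga1 had 0 UMIs in control cones and 180 in ROP cones, at least 14.2-fold higher (adjusted p = 5.75e-05), and its partner Cngb1 had 1 control UMI and 127 in ROP, both beside the rise of rod markers in cones given above.

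Among 27 genes of the axoneme, connecting cilium and trafficking, of which 26 had a row, genes were called in both directions. In rods 23 were tested, 13 rose and 2 fell (median log2 0.92), and in cones 14 were tested, 4 rose and 2 fell (0.22). Rp1l1, the relative of Rp1 at the axoneme, rose by 2.35 ± 0.23 in rods (adjusted p = 3.07e-06) and by 1.85 ± 0.37 in cones (0.00145). Poc1b, a centriolar protein, rose in rods by 2.41 ± 0.66 (adjusted p = 0.00922) from only 5 control UMIs, and Topors by 1.79 ± 0.47 (0.00747). Kif3a, a subunit of the kinesin of ciliary transport, fell in rods from 199 ± 34 to 65.2 ± 35.8 CPM (log2 fold change -1.97 ± 0.36, adjusted p = 0.000562) and in cones from 270 ± 144 to 28.7 ± 7.2 CPM (-3.20 ± 0.51, adjusted p = 0.000228). Spata7, a connecting cilium protein, fell in rods by 1.90 on the log2 scale (SE 0.29, adjusted p = 0.000106), and Tulp1, which acts in transport to the outer segment, fell in cones by 0.66 (SE 0.22, adjusted p = 0.0384). In cones Rpgrip1, a scaffold of the connecting cilium, rose by 2.17 ± 0.29 (adjusted p = 2.66e-05), and Rab28 by 3.41 ± 1.02 (0.0214) from 1 control UMI.

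Of 18 genes of adhesion, matrix and membrane skeleton, 17 had a row. In rods 13 were tested, 8 rose and 0 fell (median log2 0.90), and in cones 10 were tested, 3 rose and 0 fell (0.45). Whrn rose in rods by 1.82 ± 0.42 (adjusted p = 0.0032), Nxnl1, the gene of rod-derived cone viability factor, by 1.70 ± 0.35 (0.00147) in rods and 2.16 ± 0.49 (0.00434) in cones, and Samd7 in cones by 3.01 ± 0.58 (0.00113). Between the diets 0 genes of these lists were called in rods or cones.

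The genes most alike in level across the 55 sums of 5 classes in 11 mice (Pearson r of log2(CPM + 1), a description over sums that share libraries and depth, among 7971 genes) were ranked for each of the 8. For Prph2 they were Pdc (r = 0.980), Rp1 (0.979) and Rbp3 (0.977), and for Rom1 Pdc (0.972), Gngt1 (0.964) and Sag (0.961). Rp1 was closest to Pdc (0.982) and Prph2, Cdhr1 to Rbp3 (0.977), A930003A15Rik (0.971) and Gngt1 (0.970), and Prom1 to Nxnl2 (0.968), Sag (0.964) and Prcd (0.963). Slc24a1 was closest to Cnga1 (0.951), and Nt5e (0.938) was also near. The lowest values belonged to Reep6, with Casz1 (0.943), Pdc (0.935) and Hs3st3b1 (0.932), and to Impg1, with Pde6g (0.927), Fabp12 (0.923) and Rdh12 (0.920).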

How the data were processed

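Retinas of 11 mice were dissociated with papain and single cells were captured by inDrop v3. The deposited file holds raw UMI counts per gene and cell (20067 cells), which the authors made with bcbio-nextgen, umis and Rapmap on GRCm38 transcripts, leaving out barcodes with few reads and without normalization. The submitters' processing notes name the builds mm10 and GRCm38.p6.

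Cells with more than 300 genes were clustered with Seurat 5.3.0 after the study's settings (genes in more than 10 cells, scale factor 10000, 2000 variable genes, 75 of 100 principal components, resolution 0.2), giving 25 clusters that were named from canonical markers. Scrublet marked 0.359% of cells, so it was taken not to have worked and no doublets were removed. UMIs were summed per mouse and class, and tested with edgeR 4.0.16 (R 4.3.3; quasi-likelihood, TMM scaling, filterByExpr) on all genes with Benjamini-Hochberg adjustment at 0.05, where every mouse had at least 10 cells of the class. Each contrast held its own groups only, and the scripts were tested on simulated counts. Levels are UMIs per 1000000 of the class sum (CPM). Intervals and limits for counts of 0 (3 counts) cover counting error only. The mice are separate animals.

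The genes, lists and tests were chosen with earlier results of these data known. All 8 genes were reported in rods and cones, in the text or a figure. For the other classes and the whole retina, counts of genes called cover all that passed the filter, and values are given for some. Of the lists, at most 3 genes higher and 3 lower were named per class, those called with the largest change whose groups did not overlap, and per gene up to 3 genes most alike in level. Some results that these rules name, and the ratio of each gene to rod markers, are not reported here. Alternatives were leaving out each mouse, DESeq2 1.42.0, size factors by median of ratios, fits without the filter, a replicate block, all 4 groups in 1 fit, a minimum of 500 genes per cell, no top 5% of doublet scores, leading clusters only, and thinned sums. Scaling to class totals was added after the data were seen. Positions are from GENCODE M21 for GRCm38 and promoters from RefSeq.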

Additional observations from a re-analysis of the deposited data

Results flagged for a closer look

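The change of Slc24a1 with Phase I ROP differed between rods and cones in a direct test of the difference (adjusted p = 0.0171, edgeR with the mouse as a block, 3 control and 3 ROP mice). All 3 ROP mice had Slc24a1 UMIs in cones (190 to 301 CPM) and the 3 control mice had 0 UMIs there. The rod marker Gnat1 rose in the same cones (adjusted p = 5.06e-05, edgeR), and the part of rod RNA in the difference was not tested.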

How the results depend on the processing

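In rods the count of genes called in Phase I ROP stayed between 5 and 7 with each mouse left out, and was 6 with a replicate block (Prom1 lost, adjusted p = 0.0601), with leading clusters only and after thinning. Same-numbered mice were taken to share only a number: correlations of their deviations ran from -0.045 to 0.148 for ROP and control over rods, cones and the whole retina, and from 0.051 to 0.274 for the diets, which have only 2 pairs, and no source says that a number marks a litter. The replicate block gave 8 in the whole retina, 3 in Müller glia, 6 in amacrine cells, 5 in bipolar cells, 4 in cones and 0 for the diets. Leaving out each mouse gave 4 in cones and 8 in the whole retina throughout, 1 to 5 in Müller glia, 5 to 7 in amacrine cells and 3 to 7 in bipolar cells. Without the top 5% of doublet scores the counts were 3 in amacrine cells, 1 in bipolar cells and 0 in Müller glia, where thinning also gave 0 because no gene then passed the filter, and where no filter and all 4 groups in 1 fit gave 5 each. The rod and cone difference went to 0 genes with no filter or DESeq2 and to 0 or 1 without 1 mouse; without control 3, Impg1 was the gene called. For the diets, 2 genes were called in amacrine cells with no filter, Prph2 (-0.87) and Rp1 (-0.83). The share of all genes called is not reported here for these alternatives, so the counts of this paragraph cannot be set against it. The causes were not tested.

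With ROP, the direction of Rom1 turned without control 2 in rods (-0.062 to 0.43 over the mice left out) and cones (-0.12 to 0.37), and in bipolar cells without the top doublet scores (-0.049), with none of the turned values called. Between the diets in rods, where nothing was called, scaling to class totals gave -0.043 for Rom1, -0.12 for Prom1 and -0.10 for Cdhr1, with the median gene at -0.11. Prom1 was at -0.016 with no filter, -0.064 with all 4 groups in 1 fit, -0.0036 with the 500-gene minimum, -0.0043 without the top doublet scores and -0.0056 thinned, and Cdhr1 at -0.040 with 4 groups. Leaving out 1 mouse moved the diet values in rods from -0.12 to 0.088 for Prph2, -0.034 to 0.23 for Rom1, -0.13 to 0.16 for Prom1, -0.041 to 0.11 for Cdhr1, -0.39 to 0.029 for Rp1, -0.64 to 0.11 for Slc24a1 and -0.060 to 0.68 for Impg1.

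Scaling to class totals called 67.6% of the changed genes in rods higher, against 48.2% in the main fit, and 82.7% against 57.9% in cones. Of all genes tested, 29.5% were then called higher in rods and 20.6% in cones, against 18.4% and 10.9% in the main fit. Under that scaling the number of the 8 genes called was 7 in rods and 6 in cones. Of the single-gene values under alternatives, 727 kept direction and call, 38 lost the call, 7 gained one and 22 turned; 6 shares of rods with a UMI moved with thinning. Clustering without the 9 listed genes gave identical clusters, as none was among the variable genes, and no block could be added to the rod and cone difference beyond the mouse. Control cones were 73 cells, so Impg1 and Reep6 there rest on few UMIs.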
